A study of Mus musculus with 12 samples.

Results

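The Id genes (Id1, Id2, Id3 and Id4) and 2 genes of their E protein partners (Tcf4 and Tcf12) were followed in ventral hippocampus (vHPC) of mice with and without floxed FosB. These are 6 of the 37310 annotated genes in the count tables. The family was chosen by its link to Id4, which was already known to differ between FosB knockout (KO) and wildtype (WT) polyribosomal RNA in these libraries, so values of that comparison are given as a description without a test. A 7th gene, Tcf3, the remaining E protein gene, was measured beside them.

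RNA came from 12 libraries in 4 groups of 3. All mice (strain C57BL/6) carried a Cre-dependent GFP-tagged ribosomal protein L10a at Rosa26 and received a retrograde HSV expressing Cre in the nucleus accumbens (NAc) 3 weeks before dissection, so the tag was switched on in cells projecting to the NAc. KO mice were FosB fl/fl so that Cre could delete FosB in any cell that took up the virus, whereas WT littermates lacked the floxed allele but carried the tag and the virus. Each library held punches pooled from 3 mice according to the sample labels (3 to 4 according to the protocol). Translating ribosome affinity purification (TRAP) with antibodies to GFP gave polyribosome-associated RNA of the tagged cells, and input was RNA of the whole punch from the same pool. WT pools were numbered 1 to 3 and KO pools 2 to 4. The study's general methods give male C57Bl/6J mice that were young adults on arrival, and the age of these pools is not given in the sources used here. The pools are separate sets of mice.

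Id proteins are helix-loop-helix factors without the basic region that contacts DNA. They pair with E proteins (the products of Tcf3, Tcf4 and Tcf12), and an E protein held by an Id protein cannot pair with tissue-specific basic helix-loop-helix (bHLH) factors such as NeuroD on E-box DNA. Bone morphogenetic protein (BMP) signalling through Smad proteins is a well known inducer of Id genes, and in brain Id genes are best known from neural stem cells and astrocytes, with Id2 and Id4 also described in neurons. FosB is a subunit of AP-1, a dimer of Fos and Jun proteins.

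Promoters are shown for Id4, the gene from which the family was chosen, for Id3, the member that differed most between TRAP and input, and for Id2, the most abundant Id gene. RefSeq sequences (build GRCm38.p6, 250 bases before to 50 bases after the annotated start) were used for Id2, Id3, Id4 and Tcf12, and those of the other members were not used here. They are printed 5′ to 3′ on the gene's strand, with E-boxes (CANNTG) and CCAAT boxes (CCAAT), searched on both strands, in capitals.
Id4, chr13:48260866-48261165, plus strand: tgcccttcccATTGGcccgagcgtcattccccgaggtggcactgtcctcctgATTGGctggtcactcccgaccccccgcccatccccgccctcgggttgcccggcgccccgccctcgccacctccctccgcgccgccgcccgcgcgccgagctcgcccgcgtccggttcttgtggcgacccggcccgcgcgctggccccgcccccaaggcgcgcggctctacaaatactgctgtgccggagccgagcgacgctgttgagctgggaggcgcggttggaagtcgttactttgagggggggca
Id3, chr4:136143572-136143871, plus strand: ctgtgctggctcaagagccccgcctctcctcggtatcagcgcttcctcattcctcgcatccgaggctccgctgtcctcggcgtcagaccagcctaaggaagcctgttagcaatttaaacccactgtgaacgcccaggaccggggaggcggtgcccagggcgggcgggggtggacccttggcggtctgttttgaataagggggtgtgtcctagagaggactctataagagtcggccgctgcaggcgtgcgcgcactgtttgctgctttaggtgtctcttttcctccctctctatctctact
Id2, chr12:25096043-25096342, minus strand: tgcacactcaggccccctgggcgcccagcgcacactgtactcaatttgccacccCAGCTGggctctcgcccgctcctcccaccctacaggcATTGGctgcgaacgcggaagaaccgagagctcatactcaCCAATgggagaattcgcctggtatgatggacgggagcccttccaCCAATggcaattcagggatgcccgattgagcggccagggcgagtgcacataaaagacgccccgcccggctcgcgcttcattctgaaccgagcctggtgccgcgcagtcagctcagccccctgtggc

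The Id4 window held 2 CCAAT boxes, read on the opposite strand as ATTGG and beginning 240 and 198 bases before the start, and no E-box. The Id2 window held 3 CCAAT boxes, 1 of them as ATTGG, and 1 E-box, CAGCTG, beginning 196 bases before the start. In the Id3 window neither motif was present. Of 32851 promoter windows of the same length, 37.4% held a CCAAT box and 72.3% an E-box. The AP-1 motif (TGANTCA, in 7.81% of windows) and the CRE (TGACGTCA, in 1.79%) were searched in the same way, the former being the site of Fos and Jun dimers, and neither was in these 3 windows. Tcf12 has 3 windows in the table. Of these, 1 held an AP-1 match (TGAGTCA, beginning 13 bases after the start), all held an E-box and none held a CRE. Absence of these letters from 300 bases carries no information on binding elsewhere. The Id4 window had 73.3% G or C, the Id2 window 63.3% and the Id3 window 60.0%, against a median of 52.7% over all windows.

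Counts on genes ranged from 3416030 to 5614089 per library, and levels are given as CPM, the counts on a gene relative to all counts on genes of its library, with library sizes scaled by the trimmed mean of M values (TMM). A count of 3, taken as the floor, corresponded to 0.533 to 0.87 CPM on this scale. Fosb was lower in KO than in WT in TRAP (18.8 to 29.3 against 32.0 to 45.2 CPM) and in input (14.8 to 17.0 against 22.2 to 30.2 CPM), without overlap. Groups did not overlap for 11.9% of genes tested in TRAP and 8.37% in input. In input Fosb was not called after adjustment (unadjusted p 0.00557, edgeR quasi-likelihood test). A pair of libraries stood apart. WT input 1 had the fewest counts and 15678 detected genes, against 17255 to 18090 in the other inputs. KO TRAP 2 had a summed level of 9 GABA neuron markers of 621.5 CPM, against 167 to 408 CPM in the other TRAP libraries. Against input, TRAP had lower levels of 12 of 12 astrocyte, 8 of 8 oligodendrocyte, 9 of 9 microglial and 8 of 9 GABA neuron markers, and higher levels of 5 of 8 glutamate neuron markers (edgeR quasi-likelihood test, adjusted p under 0.05). All 9 microglial markers, 4 of the 8 oligodendrocyte markers and the GABA neuron marker Vip did not pass the filter on low counts among TRAP libraries. They entered this test through input, where they were high. Over all genes tested, 22.5% were called lower and 19.6% higher in TRAP. Of the CA1 pyramidal markers, Fibcd1 was higher in TRAP (log2 ratio 1.64), Wfs1 was not called (-0.042, adjusted p 0.858 in edgeR) and Pou3f1 was at 0 in every library.

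**Figure D1:**
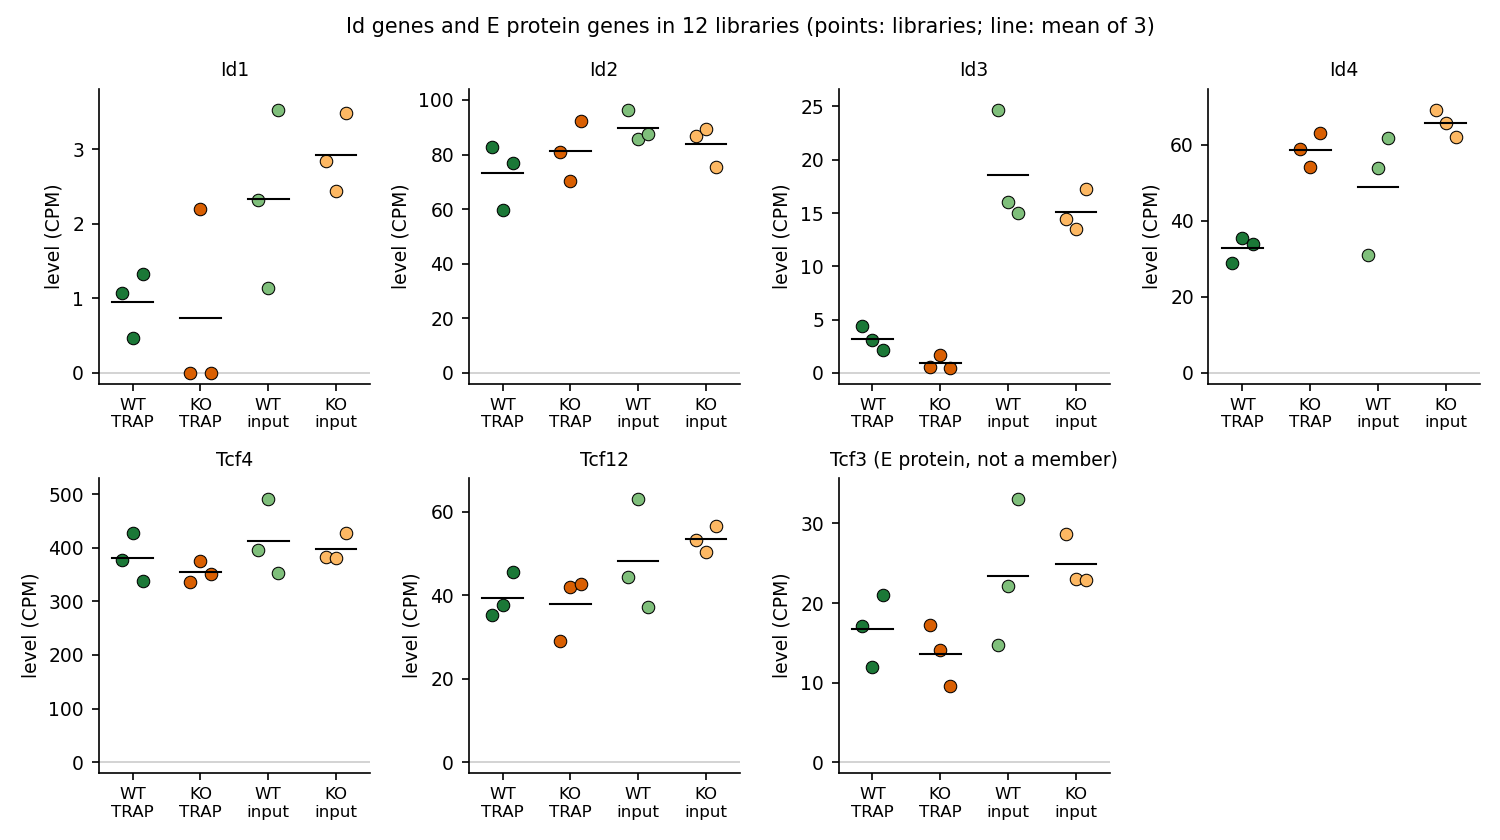
Level of each Id and E protein gene (CPM, vertical axes start just below 0) in the 12 libraries, by group, with a line at the mean of 3 libraries. Id4 in TRAP lay between 54.1 and 63.0 CPM in KO and between 29.0 and 35.5 CPM in WT, Id3 was far lower in TRAP than in input, and Tcf4 was between 336.1 and 490.3 CPM in all libraries.

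Id4 (ENSMUSG00000021379.1, build mm9, chromosome 13, 48356796 to 48359405, plus strand) had the largest fitted difference between genotypes in TRAP among the 4 members (Id2, Id4, Tcf4 and Tcf12) that passed the filter on low counts there. Its levels were 29.0, 35.5 and 34.0 CPM in WT TRAP and 58.9, 54.1 and 63.0 CPM in KO TRAP. Every KO library was above every WT library, with a fitted ratio of 1.79 (log2 ratio 0.84). Over all 11727 genes in this comparison, 8 were called (0.0682%) and 1390 (11.9%) had groups that did not overlap. It is the comparison that led to the choice of the family, so nothing is read from these shares for Id4. The log2 ratio lay between 0.76 and 0.91 when each library was left out in turn, and was 0.84 without KO TRAP 2.

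In input, which had no part in the choice of the genes, Id4 measured 31.0, 53.8 and 61.7 CPM in WT and 69.1, 65.7 and 62.1 CPM in KO. The groups did not overlap, though the highest WT library and the lowest KO library were nearly level, and 8.37% of 12816 genes had groups apart in input. The log2 ratio of KO to WT was 0.42 (standard error [SE] 0.20, 95% interval 0.0078 to 0.83), with an unadjusted p of 0.0462 and an adjusted p of 1.00 by the edgeR quasi-likelihood test, so Id4 was not called in input. Only 4 of 12816 genes were called there (0.0312%). The low WT value came from WT input 1, the library with the fewest counts and, among inputs, the fewest detected genes. Without that pool the log2 ratio was 0.19 (unadjusted p 0.219 and adjusted p 1.00 in edgeR), and without WT pool 3 it was 0.62. Dentate granule cell markers (Prox1, Dsp and C1ql2) had a higher mean in KO input for 3 of 3 genes. Their summed level was 52.1 to 95.6 CPM in KO input against 38.6 to 65.2 CPM in WT input, which overlapped. Endothelial and mural markers had a higher mean in KO input for 10 of 11 genes, with sums of 85.8 to 98.3 CPM against 59.5 to 102 CPM, which overlapped. Only 6 of these 11 genes passed the filter on low counts in input, and none was called there. The part of these markers in the Id4 difference was not tested. Astrocyte markers in input overlapped between genotypes, at 2652 to 3067 CPM in WT and 2790 to 3204 CPM in KO.

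Between TRAP and input, Id4 was lower in TRAP by a log2 ratio of -0.38 over both genotypes (SE 0.13, adjusted p 0.0205, edgeR quasi-likelihood test), and it was lower in 5 of 6 pools. This comparison holds the same TRAP libraries as the comparison that led to the choice of the genes, averaged over genotypes. The log2 ratio was -0.58 in WT pools alone (adjusted p 0.0657) and -0.17 in KO pools alone (adjusted p 0.361), both by edgeR, and the difference between genotypes was not tested. The call was lost when KO pool 2, KO pool 3 or WT pool 3 was left out (adjusted p 0.0825, 0.084 and 0.122 by edgeR). In bulk RNA, fewer cells of a type and less RNA per cell cannot be told apart. The exons of Id4 overlap those of A330033J07Rik on the opposite strand over 171 bases. That gene had 48 counts in all 12 libraries together, and the strand setting of the counting is not given in the sources used here.

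Id3 (ENSMUSG00000007872.3, chromosome 4, 135699412 to 135701670, plus strand) was the member with the largest difference between fractions. Its input levels were 24.66, 16.02 and 14.97 CPM in WT and 14.4, 13.5 and 17.2 CPM in KO. In TRAP it fell to 4.45, 3.06 and 2.13 CPM in WT and to 0.558, 1.71 and 0.489 CPM in KO. Every TRAP library was below every input library. The log2 ratio of TRAP to input was -3.23 (SE 0.30, adjusted p 1.72e-09, edgeR quasi-likelihood test), a level 9.38-fold lower, seen in 6 of 6 pools. Without KO pool 2 the log2 ratio was -3.12. Id3 passed the filter on low counts for this test through input, where it was high. Median log2 ratios were below 0 for most marker lists, at -2.69 for astrocytes, -3.74 for oligodendrocytes, -3.63 for oligodendrocyte precursors, -3.59 for microglia, -2.50 for endothelial and mural cells, -1.72 for GABA neurons, -1.66 for neural progenitors and immature neurons and -1.65 for dentate granule cells. They were above 0 for glutamate neurons (0.25) and CA1 pyramidal neurons (0.80). All 9 microglial markers, Mog, Mag, Cldn11, Opalin, Pdgfra, Gpr17, Flt1, Slco1a4, Vtn, Vip and Nes did not pass the filter among TRAP libraries. These markers entered through input, where they were high, so the filter favoured medians below 0 for their lists. In this comparison 22.5% of 13214 genes were called lower and 19.6% higher in TRAP.

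Reads of Id3 in TRAP were few. WT TRAP libraries held 25, 13 and 8 reads and KO TRAP libraries 2, 7 and 2, so that in KO the level was at or near the floor and the gene did not pass the filter on low counts for the comparison of genotypes in TRAP. The 3 KO libraries were all below the 3 WT libraries. The share of genes with groups apart in TRAP (11.9%) was counted over genes that passed the filter and does not cover Id3. Summed over pools, WT had 46 reads in TRAP and 223 in input, a rate 5.33-fold lower per count on genes in TRAP (95% exact interval 3.86 to 7.48). KO had 11 and 201, a rate 15.7-fold lower (8.56 to 31.9). These intervals cover counting error only. Pool by pool, the log2 difference of TRAP and input with 0.5 CPM added was -2.56 to -2.22 in WT and -4.16 to -2.67 in KO, without overlap, as for 8.61% of 13214 genes, and this difference between genotypes was not tested. Beside it, the summed astrocyte markers in TRAP were 461 to 548 CPM in WT and 446 to 477 CPM in KO, with 4 of 12 genes higher on average in KO, and none was at 0. Slc1a2 alone made up 193 to 288 CPM of these sums. Aldh1l1, Glul and Aldoc, astrocyte markers singled out after their values were seen, had every KO TRAP library below every WT TRAP library. Aldh1l1 was at 5.88 to 10.7 CPM in WT TRAP and 1.46 to 4.64 CPM in KO TRAP. Glul was at 94.4 to 102.5 CPM in WT TRAP and 66.7 to 86.7 CPM in KO TRAP. Aldoc was at 66.4 to 74.1 CPM in WT TRAP and 54.9 to 64.2 CPM in KO TRAP. The other astrocyte markers overlapped between genotypes in TRAP. The summed oligodendrocyte precursor markers were 20.2 to 38.2 CPM in WT TRAP and 11.2 to 19.5 CPM in KO TRAP, without overlap. Most of that sum was Cspg4, which was higher in TRAP than in input, whereas Pdgfra and Gpr17 were lower. Pdgfra and Gpr17 passed the filter for that comparison through input alone, where they were high. The part of these cells in the Id3 values was not tested. In input, Id3 had a log2 ratio of KO to WT of -0.29 (SE 0.26, adjusted p 1.00, edgeR), with overlapping groups.

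Id1 (ENSMUSG00000042745.9, chromosome 2, 152561987 to 152563146, plus strand) was close to the limit of detection. Input libraries held 8, 5 and 16 reads in WT and 12, 11 and 16 in KO, or 2.32, 1.14 and 3.52 CPM and 2.84, 2.44 and 3.49 CPM. TRAP libraries held 6, 2 and 5 reads in WT (1.07, 0.470 and 1.33 CPM) and 0, 9 and 0 in KO, the middle library alone reaching 2.20 CPM. A count of 0 in KO TRAP 2 and KO TRAP 4 allows levels of up to 0.837 and 0.733 CPM. Summed over all pools there were 22 reads in TRAP and 68 in input, a rate 3.01-fold lower in TRAP (95% exact interval 1.84 to 5.11, counting error only). The adjusted p was 0.044 in the edgeR quasi-likelihood test, with a lower value in 6 of 6 pools, and Id1, like Id3, entered that test through input, where it was high. This call was lost in 5 of the 6 fits that left out a pool, all but the fit without KO pool 3 (adjusted p 0.0646 to 0.199 by edgeR). KO pool 3 held all 9 KO TRAP reads, and without it the fitted log2 ratio moved from -1.595 to -4.003, so its size rests on that library. Id1 did not pass the filter for the genotype comparison in TRAP. In input its log2 ratio of KO to WT was 0.32 (SE 0.59, 95% interval -0.91 to 1.56), an interval that leaves room for changes in either direction.

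Id2 (ENSMUSG00000020644.8, chromosome 12, 25778666 to 25780957, minus strand) was the most abundant Id gene per length, and over all 12 libraries it varied least of the Id genes. Within groups, Id4 had a smaller coefficient of variation in all but WT input. Id2 measured 82.9, 59.7 and 77.0 CPM in WT TRAP and 80.9, 70.5 and 92.3 CPM in KO TRAP. In input it measured 96.3, 85.6 and 87.7 CPM in WT and 86.6, 89.4 and 75.6 CPM in KO. The genotypes overlapped in both fractions. The log2 ratio of KO to WT was 0.15 in TRAP (no test) and -0.10 in input (SE 0.13, 95% interval -0.37 to 0.18, adjusted p 1.00, edgeR). TRAP was below input in 5 of 6 pools with a log2 ratio of -0.17 (SE 0.10, 95% interval -0.38 to 0.035), which did not pass the test (adjusted p 0.178, edgeR). Of 44 stretches of 75 bases taken from Id2 exons, 6 (13.6%) matched a further place in mm9 with at most 2 differences, whereas no stretch of the other members did. Reads from those stretches may have been discarded as not unique, so the Id2 level is uncertain to that extent.

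**Figure D2:**
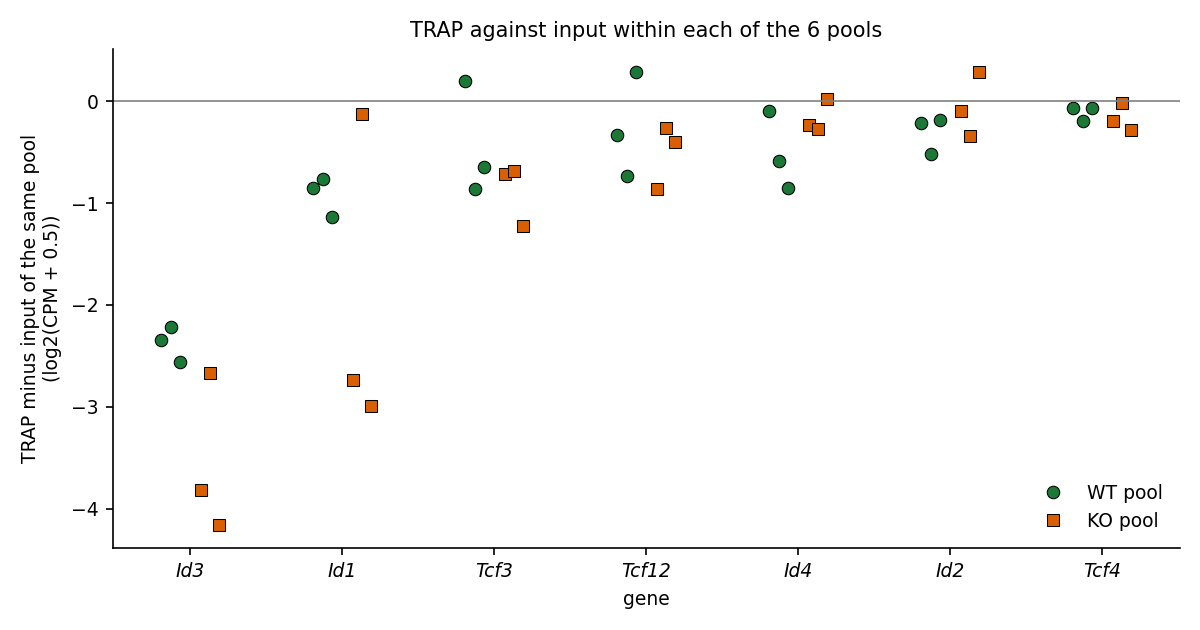
TRAP minus input of the same pool, as a difference of log2(CPM + 0.5), for each gene (horizontal axis) and each of the 6 pools, with WT pools as circles and KO pools as squares. Id3 was lower in TRAP in all 6 pools, between -4.16 and -2.22, Id4 ranged from -0.85 to 0.021, and Tcf4 stayed between -0.28 and -0.023.

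Tcf4 (ENSMUSG00000053477.9, chromosome 18, 69503800 to 69847621, plus strand) encodes the E protein E2-2, and its count level was the highest of the 6 genes. It measured 378, 428 and 337 CPM in WT TRAP and 336, 376 and 351 CPM in KO TRAP. In input it measured 395, 490 and 354 CPM in WT and 384, 382 and 427 CPM in KO. The genotypes overlapped in both fractions, while in KO every TRAP library was below every input library. The log2 ratio of KO to WT was -0.10 in TRAP (no test) and -0.05 in input (SE 0.12, 95% interval -0.30 to 0.20, adjusted p 1.00, edgeR). TRAP was slightly below input in 6 of 6 pools, with a log2 ratio of -0.14 (SE 0.079, 95% interval -0.30 to 0.018), but Tcf4 was not called (adjusted p 0.15, edgeR).

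Tcf12 (ENSMUSG00000032228.8, chromosome 9, 71692059 to 71959626, minus strand) encodes the E protein HEB. It measured 35.2, 37.6 and 45.4 CPM in WT TRAP and 29.0, 41.9 and 42.7 CPM in KO TRAP. In input it measured 44.4, 62.9 and 37.2 CPM in WT and 53.3, 50.4 and 56.6 CPM in KO. The genotypes overlapped in both fractions. The log2 ratio of KO to WT was -0.05 in TRAP (no test) and 0.15 in input (SE 0.18, 95% interval -0.23 to 0.53, adjusted p 1.00, edgeR). Tcf12 was lower in TRAP than in input by a log2 ratio of -0.40 (SE 0.13, adjusted p 0.0183, edgeR), in 5 of 6 pools. The call was lost without KO pool 2, KO pool 4 or WT pool 2 (adjusted p 0.108, 0.0525 and 0.155 by edgeR).

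Tcf3 (ENSMUSG00000020167.8, chromosome 10, 79872259 to 79896392, minus strand), which encodes E12 and E47, had a similar direction between fractions. It measured 17.07, 11.99 and 20.99 CPM in WT TRAP and 17.3, 14.1 and 9.53 CPM in KO TRAP. In input it measured 14.8, 22.2 and 33.0 CPM in WT and 28.6, 23.1 and 22.9 CPM in KO. The log2 ratio of TRAP to input was -0.68 (SE 0.20, adjusted p 0.00649, edgeR), with a lower value in 5 of 6 pools, and the KO and WT levels overlapped in both fractions.

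Between TRAP and input, Id4 and Tcf12 were called lower in TRAP, and Id2 and Tcf4 did not pass the test. Id1 and Id3 were called lower as well, but they passed the filter through input alone, so no count over the 6 members is set against the 22.5% of all genes called lower. None of the 6 was called between genotypes in input, where all had an adjusted p of 1.00 in edgeR. At an unadjusted p under 0.05 this count was 1 of 6 (Id4), beside 371 of 12816 genes. With DESeq2 it was also 0 after adjustment, beside 8 genes called in all.

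**Figure D3:**
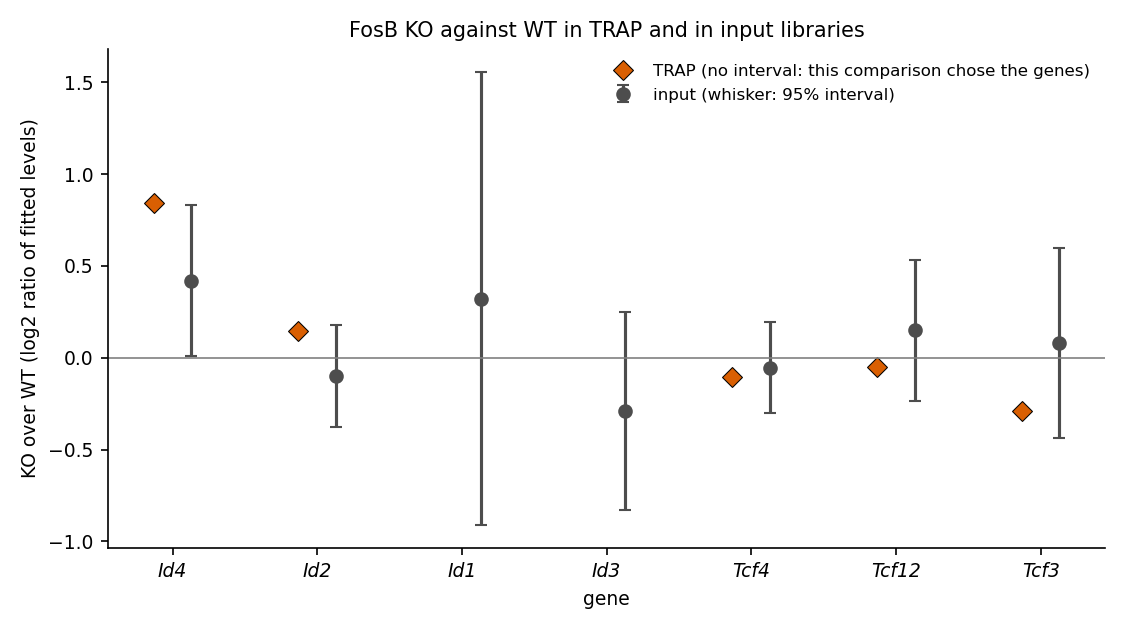
Log2 ratio of KO to WT for each gene (horizontal axis) in TRAP (diamonds, without interval because this comparison chose the genes) and in input (circles with 95% intervals). Id4 was at 0.84 in TRAP and 0.42 in input, where its interval began at 0.0078 and it was not called. Without WT pool 1 its log2 ratio in input was 0.19. The intervals of the other genes in input included 0, and Id1 and Id3 have no TRAP value because they did not pass the filter on low counts.

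Levels of different genes were compared per kilobase of annotated exon. In WT TRAP, Id2 was highest at 57.7 ± 9.48 CPM per kb (SD, n = 3), followed by Tcf4 at 31.1 ± 3.69, Id4 at 19.8 ± 2.06, Tcf12 at 8.11 ± 1.10, Tcf3 at 4.13 ± 1.12, Id3 at 1.79 ± 0.65 and Id1 at 0.82 ± 0.38 CPM per kb. By this length, neighbours in that order did not overlap. In KO TRAP the same measure placed Id4 (35.3 ± 2.68 CPM per kb) above Tcf4 (28.9 ± 1.62), without overlap, and Id1 and Id3 overlapped at the bottom. In WT input Tcf4 and Id4 overlapped, as did Id3 with Tcf12 and Tcf12 with Tcf3. In KO input Id4 was again above Tcf4 (39.5 ± 2.12 against 32.4 ± 2.09 CPM per kb). The place of Tcf4 rests on its length, since its 15 annotated transcripts cover 12250 exon bases and the longest has 7402. Divided by the longest transcript, Tcf4 was at 51.5 and 47.9 CPM per kb in TRAP of WT and KO, and at 55.8 and 53.7 CPM per kb in input, above the mean of Id4 in all 4 groups. By that length it also overlapped Id2 in WT TRAP, at 45.6 to 57.8 against 47.0 to 65.3 CPM per kb, and was above Id2 in WT TRAP 2.

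Summed per kilobase of exon, the 4 Id genes were at 80.0 ± 8.34 CPM per kb in WT TRAP and 100.4 ± 10.0 in KO TRAP (SD, n = 3). WT libraries ranged from 70.5 to 86.1 and KO libraries from 90.9 to 110.9, without overlap. In input the sums were 112.5 ± 4.40 in WT and 116.5 ± 6.04 in KO, which overlapped. The 3 E protein genes summed to 43.3 ± 1.98 and 40.1 ± 2.56 CPM per kb in TRAP of WT and KO, and to 49.4 ± 7.85 and 49.6 ± 2.48 CPM per kb in input. The ratio of Id to E sums was 1.86 ± 0.27 in WT TRAP and 2.52 ± 0.35 in KO TRAP, and 2.32 ± 0.39 and 2.36 ± 0.23 in WT and KO input. By the longest transcript it was 1.24 ± 0.19 and 1.67 ± 0.23 in TRAP of WT and KO, and 1.61 ± 0.27 and 1.64 ± 0.15 in input (SD, n = 3). Id2 and Id4 together held 96.8% of the Id sum in WT TRAP and 98.8% in KO TRAP, against 89.0% and 90.6% in input. The share of Id4 alone was 25.1% ± 5.04 in WT TRAP and 35.2% ± 0.89 in KO TRAP (SD, n = 3). All of these sums contain the Id4 values that led to the choice of the family, and none was tested.

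**Figure D4:**
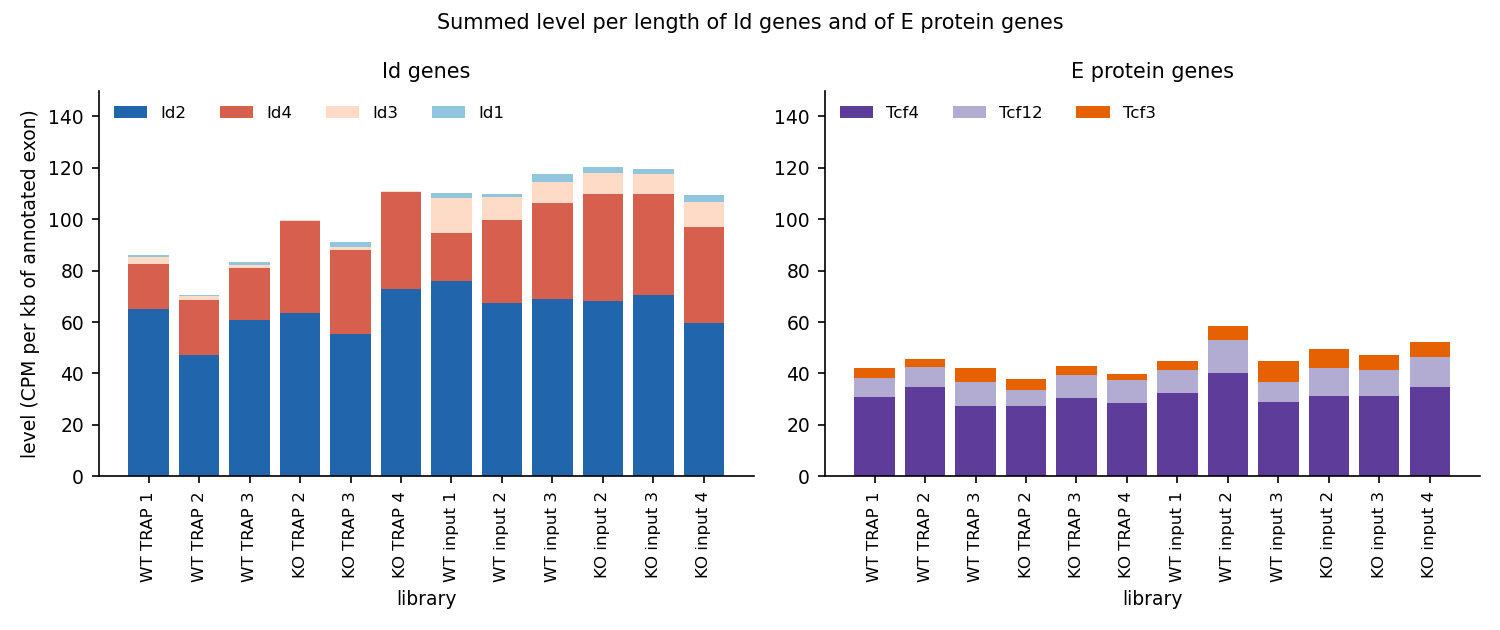
Stacked levels (CPM per kb of annotated exon) of the 4 Id genes (left) and the 3 E protein genes (right) in each of the 12 libraries. Id2 and Id4 made up nearly the whole Id sum, which was 70.5 to 86.1 in WT TRAP and 90.9 to 110.9 in KO TRAP, and Tcf4 was the largest part of the E protein sum.

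The genes whose pattern over the 12 libraries was most like that of each member were found among 10756 genes with a mean of at least 5 CPM, as the smallest root mean square difference of centred log2(CPM + 0.5). For Id4 these were Lgr4, a receptor for R-spondins (0.20), Rbl2, a retinoblastoma-like protein (0.21), Bivm (0.24), Gpr62, an orphan G protein-coupled receptor (0.24), and Cbfb, the partner of Runx factors (0.24). Id4 itself varied by 0.44 around its mean on this scale. For Id3 they were Bcan, a brain proteoglycan (0.37), Myo6, an unconventional myosin (0.41), and Sorbs3 (0.44), against 1.61 for Id3 itself. For Tcf4 they were Ppm1e, Srgap2 and Tax1bp1 (0.080 to 0.090). For Id2 they were Mtdh, Polr3k and Nalcn (0.11), and for Tcf12 Atxn3, Golga5 and Sulf2 (0.13 to 0.15). For Id1 they were Hmgcll1, Arpc1b and Mid1ip1 (0.54 to 0.55). With 2 CPM added in place of 0.5, 1 of the 3 genes named for Id1, 2 of 3 for Id3 and Tcf12, and 3 of 5 for Id4 were found again. Id2 and Tcf4 varied by 0.18 and 0.15 around their own means, so many genes with little variation lie close to them. The values describe likeness of pattern in these libraries, in which all genes share depth and scaling.

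The genes around the Id family were read from lists of its dimerization partners and of the BMP pathway. Of 25 tissue-specific bHLH partners of E proteins, 9 were tested between TRAP and input, of which 4 were higher and 2 lower in TRAP. Over all genes, 19.6% were called higher and 22.5% lower. Their median log2 ratio was 0.33, against -0.012 for all genes. Bhlhe22 (log2 ratio 0.65, SE 0.11), Neurod6 (0.54, SE 0.17) and Neurod2 (0.33, SE 0.090), factors of differentiated excitatory neurons, were higher in TRAP, with adjusted p of 9.95e-05, 0.02 and 0.00429 in edgeR. Olig1 and Olig2, factors of the oligodendrocyte lineage, were lower (log2 ratios -3.48 and -3.08, adjusted p 5.63e-14 and 1.05e-08 in edgeR).

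Among the Hes, Hey and Bhlhe repressors, 9 of 11 were tested, with 3 higher and 2 lower in TRAP and a median log2 ratio of 0.35. Bhlhe40, a repressor of the circadian and activity-regulated programmes, was higher (log2 ratio 0.80, SE 0.089, adjusted p 3.85e-08, edgeR), as were Hey1 (0.36, SE 0.12) and the Notch target Hes1 (0.58, SE 0.23), with adjusted p of 0.0148 and 0.045. Hes5 and Heyl were lower, at -2.32 and -2.36 (SE 0.35 and 0.53, adjusted p 6.19e-06 and 0.000741, edgeR). Both passed the filter through input alone, with 4 to 10 and 0 to 16 reads in TRAP libraries, so the count of genes lower is not set against the share of all genes.

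For the BMP pathway, no list was tested as a whole, and 22.5% of all genes were called lower and 19.6% higher in TRAP. Of 11 ligand genes 4 were tested, and Bmp6 and Bmp7 were called lower (adjusted p 0.000147 and 5.88e-05 in edgeR). Both passed the filter through input alone. Bmp6 held 0 to 4 reads in TRAP libraries and 10 to 16 in input libraries, and Bmp7 1 to 16 and 16 to 55. Of 8 receptor genes 7 were tested and 5 were lower, with a median log2 ratio of -0.50. These included the type I receptors Bmpr1b (-2.11, SE 0.32) and Bmpr1a (-0.87, SE 0.20), and Eng, a co-receptor of blood vessels, which passed the filter through input alone, with 0 to 5 reads in TRAP libraries and 8 to 23 in input libraries. Of the 4 Smad genes of the BMP branch, Smad5 (-0.78, SE 0.16) and the common partner Smad4 (-0.35, SE 0.12) were lower. Of 12 inhibitors 7 were tested, and the ubiquitin ligase Smurf2 (-0.54, SE 0.14) and the secreted BMP binder Twsg1 (-0.50, SE 0.18) were lower, while 2 of the 7 had a log2 ratio above 0. No gene of the ligand, receptor, Smad or inhibitor lists was called higher in TRAP.

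Between genotypes in input, no gene of any of these lists was called by edgeR. In TRAP, where no test is given, the median log2 ratio of KO to WT was -0.47 for 2 BMP ligand genes, 0.30 for 6 receptor genes, 0.15 for 4 Smad genes and -0.065 for 7 inhibitor genes, against -0.002 for all genes. It was -0.36 for 9 bHLH partner genes and -0.035 for 7 Hes, Hey and Bhlhe genes. In input the medians were 0.19 for ligands, 0.013 for receptors, 0.060 for Smad genes, -0.19 for inhibitors, -0.089 for bHLH partners and 0.061 for Hes, Hey and Bhlhe genes.

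**Figure D5:**
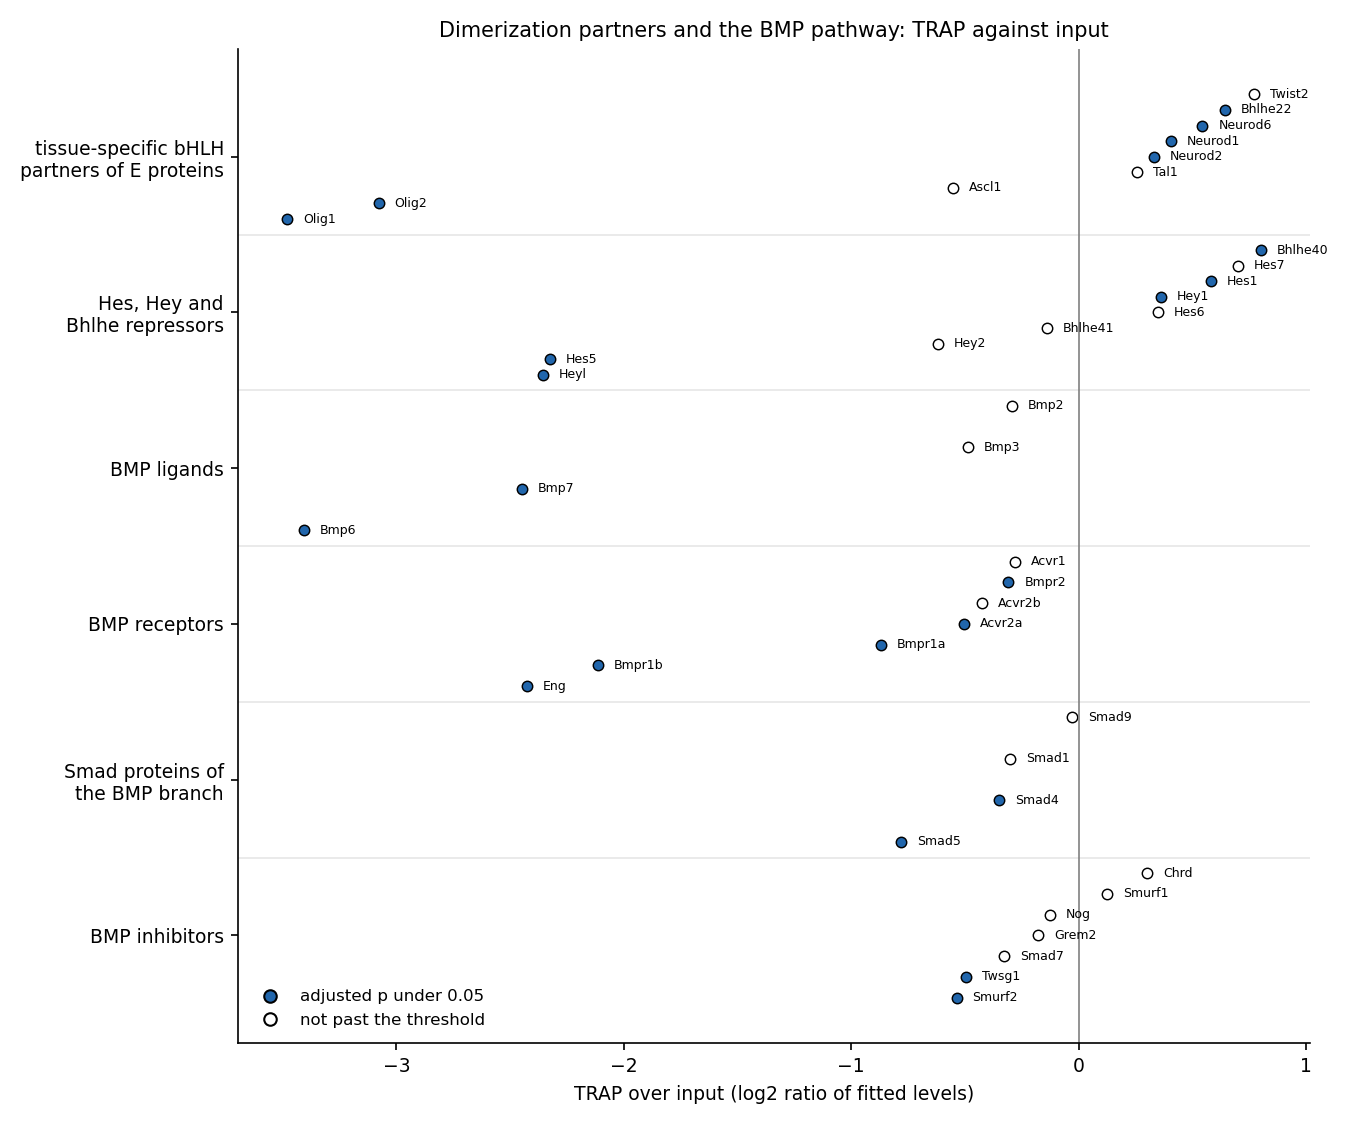
Log2 ratio of TRAP to input (horizontal axis) for the tested genes of 6 lists (rows), with filled points for an adjusted p under 0.05. Neuronal bHLH partners and Bhlhe40 lay to the right of 0, and Olig1 (-3.48) and Olig2 (-3.08) far to the left. Bmp6 and Bmp7 also lay far to the left, but they passed the filter on low counts through input alone. All 7 tested BMP receptor genes were below 0, of which Eng also passed the filter through input alone.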

How the data were processed

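RNA of 12 libraries was measured by RNA-seq (SMARTer Stranded Total RNA-Seq kit). The authors aligned reads to mm9 with TopHat and deposited raw read counts per gene (HTSeq-count, Gencode vM1), without normalization. The strand setting is not given in the sources used here. The 5 summary rows that name no gene were left out of library sizes. They included 20.6% to 27.1% of uniquely aligned reads assigned to no gene and 2.11% to 2.56% that were ambiguous. All 37310 gene identifiers matched the annotation.

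Counts were tested with edgeR 4.0.16 (R 4.3.3, robust quasi-likelihood test, TMM, filterByExpr by group), with p-values adjusted by the Benjamini-Hochberg method over all genes tested and a threshold of 0.05. KO was compared with WT in input and in TRAP, and TRAP with input over both genotypes in a fit of 4 groups. Test scripts were checked on simulated counts. Libraries of a group had identical counts in 0.805% to 1.99% of genes, so none is a copy of another. TRAP and input of a pool come from the same mice, with correlations of their deviations from the group means of 0.058 to 0.106. KO and WT pools that share a number are different mice (-0.070 to 0.0029). Precision was limited by 3 pools per group and, for rare genes, by depth.

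The genes named were the members, Tcf3, up to 3 genes per list and direction with the smallest adjusted p in TRAP against input, and the nearest genes in pattern (5 for Id4 and 3 for others). Members, lists and comparisons were chosen with earlier results of these data known. Alternatives were scaling (RLE, total counts), filters (none, or at least 10 counts on average), mitochondrial genes removed, DESeq2 1.42.0, non-robust dispersion, a replicate block, all libraries in 1 fit, each genotype alone, leaving out each pool, transcript length and a pseudocount of 2 CPM. Exon stretches (75 bases, every 25) were placed on mm9 with minimap2 2.31. Promoters came from RefSeq (GRCm38.p6), where Id1 had no entry in the table used.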

Additional observations from a re-analysis of the deposited data

How the results depend on the processing

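The number of genes called between genotypes depended on the processing. In TRAP, the 8 calls became 41 without a filter and 18 with DESeq2, and 5 to 20 when each pool was left out in turn. In input, the 4 calls became 19 without a filter, 8 with DESeq2, 20 with the replicate block and 7 in a fit of all 12 libraries, and 1 to 5 when each pool was left out. Between TRAP and input, the 5572 calls became 3096 in WT libraries alone and 3626 in KO libraries alone, fits with fewer samples. They stayed between 4744 and 5634 when each pool was left out, and the replicate block joining TRAP and input of a pool gave 5871. KO and WT pools that share a number are different mice, so the block between genotypes pairs a number only. With it the log2 ratio of Id4 was 0.70 in TRAP and 0.23 in input.

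No member was called between genotypes in input under any alternative. Signs reversed there for Id2 and Tcf3 with the replicate block (0.025 and -0.081), and for Id1 (-0.0098 to 0.77), Tcf4 (-0.16 to 0.087), Tcf12 (-0.011 to 0.39) and Tcf3 (-0.15 to 0.42) when each pool was left out. Between TRAP and input, Id3 was called under all 16 alternatives. With WT libraries alone, Id4, Tcf12 and Tcf3 lost the call (adjusted p 0.0657, 0.329 and 0.256 by edgeR), and with KO libraries alone Id4 did (0.361). The cause was not tested. With 2 CPM as pseudocount, 3 of the 5 nearest genes of Id4 and 1 of the 3 of Id1 were shared.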
